A study of Mus musculus with 8 samples.

Results

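Dcn, Lum, Ogn, Omd, Fmod, Bgn, Aldh1a2 and Slc6a13 are genes that mark the fibroblasts of the meninges, the connective tissue sheets around the brain. Their levels were followed in hippocampal RNA, and every probe set annotated to one of these symbols alone was taken, which gave 17 of the 45037 probe sets of the array and 8 of 18193 genes. Where a gene had several probe sets, the one with the highest mean was used. All values are log2 expression values. The study compared the hippocampal transcriptome of Tg6799 mice with that of their littermates early and late in the symptomatic period. Female littermates without the transgenes, called LM, and female Tg6799 mice, called MT, were sampled at 4 months (LM4m and MT4m) and at 8 months (LM8m and MT8m), with 2 arrays per group. The Tg6799 line carries mutant human APP under Thy1 promoter sequence, which drives expression in neurons, so the meningeal cells are not the intended site of transgene expression. The strain label is Tg6799 for both genotypes. Separate animals and pools are not distinguished in the labels, so p-values cover only the spread among these samples, which could be technical.

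The small leucine-rich proteoglycans are secreted proteins with a short core of leucine-rich repeats and, in most members, sugar chains. They bind collagen fibrils and set fibril width and spacing, and several of them bind growth factors such as TGF-beta. In the brain they are made mainly by fibroblasts of the meninges and of larger vessels, whereas the neuropil of the hippocampus holds few fibroblasts. The meninges also make retinoic acid and carry transporters that clear solutes between the cerebrospinal fluid and the tissue.

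The labels were set against the data before the comparisons. Thy1, whose promoter sequence drives the transgenes, lay between 11.73 and 11.82 on MT4m replicates 1 and 2 and MT8m replicate 2, and between 9.53 and 9.96 on the LM arrays. On the array labelled MT8m replicate 1, Thy1 was 9.90, Cst7, a gene of plaque-associated microglia, was 1.75 and Gfap, the astrocyte filament, was 7.17, and these 3 genes lay near or below the littermate values, against the label. Ttr, the transthyretin gene of the choroid plexus, was 10.69 on this array, with 10.66 to 10.97 on the other MT arrays and 12.43 to 12.83 on the LM arrays, at the level of its label. LM4m replicate 1 and LM8m replicate 2 stood apart by the values of the 8 genes themselves, and any result without them is selected on the outcome. LM4m replicate 1 also had the largest difference between the 3′ and 5′ control probe sets of Gapdh, 2.19 against 0.66 to 1.42 on the other arrays, and LM8m replicate 2 had the smallest. For Actb these were again the highest and the lowest array, with 2.96 on LM4m replicate 1, 1.67 on LM8m replicate 2 and up to 2.43 elsewhere.

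Dcn (decorin) and Bgn (biglycan) carry chondroitin or dermatan sulfate chains, and both bind TGF-beta. Dcn was 8.11 and 7.08 in LM4m, 8.25 and 7.47 in MT4m, 7.46 and 7.91 in LM8m, and 7.13 and 6.70 in MT8m. Its highest array was MT4m replicate 1, the groups overlapped at 4 months, and at 8 months both LM arrays lay above both MT arrays. The group means ran from MT4m at 7.86 ± 0.55 (SD, n = 2) through LM8m at 7.69 ± 0.32 and LM4m at 7.60 ± 0.73 to MT8m at 6.92 ± 0.30. Bgn was 5.27 and 4.41 in LM4m, 3.99 and 4.27 in MT4m, 4.58 and 4.82 in LM8m, and 4.18 and 4.60 in MT8m. Both LM4m arrays exceeded both MT4m arrays, while MT8m replicate 2 lay above LM8m replicate 1. The Bgn means were 4.84 ± 0.61 in LM4m, 4.70 ± 0.17 in LM8m, 4.39 ± 0.30 in MT8m and 4.13 ± 0.20 in MT4m.

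Lum (lumican), Fmod (fibromodulin) and Omd (osteomodulin) carry keratan sulfate in many tissues, and Ogn (osteoglycin or mimecan) is a related short proteoglycan. Fmod showed the widest range, with 7.50 and 3.81 in LM4m, 4.37 and 3.24 in MT4m, 4.60 and 6.91 in LM8m, and 4.55 and 3.99 in MT8m. The Fmod probe set used, its brightest, is of a design class that may cross-hybridise. LM4m replicate 1 and LM8m replicate 2 stood far above the other arrays, and the remaining LM arrays lay inside or near the MT range. Ogn shared the 2 highest arrays and the lowest array with Fmod, with 6.59 and 3.91 in LM4m, 4.26 and 3.19 in MT4m, 3.99 and 6.59 in LM8m, and 3.42 and 3.58 in MT8m. Its means were 5.29 ± 1.84 in LM8m, 5.25 ± 1.90 in LM4m, 3.73 ± 0.75 in MT4m and 3.50 ± 0.12 in MT8m, so that each LM mean was the mean of 1 high and 1 low array.

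Lum was 3.69 and 3.40 in LM4m, 3.42 and 2.92 in MT4m, 2.80 and 4.48 in LM8m, and 3.22 and 3.21 in MT8m. The 2 LM8m arrays were at once the lowest and the highest of all 8. Omd was 3.01 and 2.11 in LM4m, 2.51 and 2.54 in MT4m, 2.06 and 3.37 in LM8m, and 2.30 and 2.33 in MT8m. Here also the 2 highest arrays and the 2 lowest arrays were all LM, and the MT arrays lay between them. The mean of Lum stood at the 62.7th percentile of probe set means and that of Omd at the 51.1st.

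Aldh1a2 makes retinoic acid from retinal, and Slc6a13 encodes the GABA and taurine transporter GAT2, which sits in the leptomeninges rather than at synapses. Aldh1a2 was 3.28 and 1.74 in LM4m, 2.07 and 1.76 in MT4m, 2.35 and 3.91 in LM8m, and 1.92 and 2.25 in MT8m. LM4m replicate 1 and LM8m replicate 2 stood clear of the other arrays, which lay between 1.74 and 2.35, below the median of probe set means of 2.47. These low values were not shown to be above background, and Aldh1a2 was the 1 gene of the 8 whose mean lay below that median. Slc6a13 was 4.92 and 3.01 in LM4m, 3.36 and 2.89 in MT4m, 2.99 and 4.13 in LM8m, and 3.18 and 3.21 in MT8m. Again 1 LM array of each age was high while the other lay within the MT range.

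In the order of the group means, 24 neighbouring pairs of groups could be compared over the 8 genes. In 3 of them the step between the means was larger than the larger of the pair's SDs. These were LM4m above MT8m for Lum, MT4m above MT8m for Omd and LM8m above MT8m for Bgn, and in each case the SDs rested on 2 arrays. The remaining neighbours did not differ beyond their spread.

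**Figure D1:**
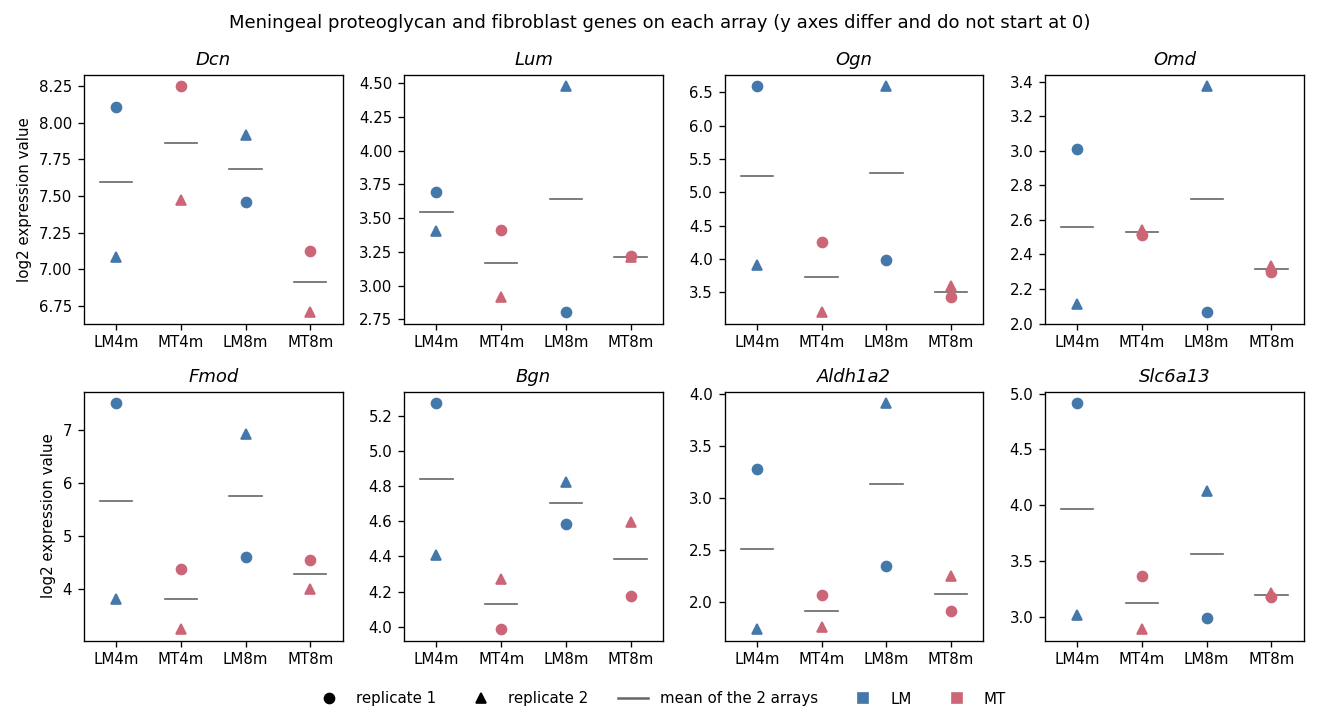
Each panel plots 1 gene, with the groups on the x axis and the log2 expression value on the y axis, whose range differs between panels. Circles are replicate 1, triangles replicate 2, blue LM, red MT, and grey lines the mean of both. LM4m replicate 1 and LM8m replicate 2 are the 2 highest arrays for 7 of the 8 genes, while for Dcn the highest is MT4m replicate 1 at 8.25.

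The promoters of Ogn, Fmod and Aldh1a2 are shown because these genes had the largest gaps between arrays of a group among the 6 of 8 genes for which the RefSeq promoter table (GRCm38.p6) held an entry. Dcn and Lum had none there. Each window holds 250 bases before the annotated start and 50 after it, 5′ to 3′ on the plus strand, with motif letters in capitals. They are TATAAA on both strands, overlapping, in Ogn, and CCAAT in Fmod and Aldh1a2.
Ogn, chr13:49607765-49608064: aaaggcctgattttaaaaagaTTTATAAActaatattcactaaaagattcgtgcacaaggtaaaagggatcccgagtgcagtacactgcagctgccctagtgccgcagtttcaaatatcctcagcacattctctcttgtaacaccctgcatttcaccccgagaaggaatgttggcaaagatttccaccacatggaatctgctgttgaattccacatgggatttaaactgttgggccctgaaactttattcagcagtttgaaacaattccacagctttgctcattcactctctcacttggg
Fmod, chr1:134037004-134037303: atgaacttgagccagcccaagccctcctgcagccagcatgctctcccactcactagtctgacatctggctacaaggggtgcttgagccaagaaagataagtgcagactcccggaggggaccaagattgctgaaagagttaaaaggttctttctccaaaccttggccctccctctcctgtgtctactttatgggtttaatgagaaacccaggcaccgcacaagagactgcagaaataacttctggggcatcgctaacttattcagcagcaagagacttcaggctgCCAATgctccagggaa
Aldh1a2, chr9:71215539-71215838: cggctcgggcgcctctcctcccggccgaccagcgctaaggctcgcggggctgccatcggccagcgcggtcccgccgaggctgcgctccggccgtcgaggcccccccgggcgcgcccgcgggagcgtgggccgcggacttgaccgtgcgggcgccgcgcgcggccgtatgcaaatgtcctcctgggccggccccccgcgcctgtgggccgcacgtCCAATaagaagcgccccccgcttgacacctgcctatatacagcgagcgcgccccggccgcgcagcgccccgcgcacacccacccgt

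The 3 windows differed widely in base composition. GC content was 42.3% in Ogn, 51.0% in Fmod and 78.0% in Aldh1a2, at the 14.9th, 43.0th and 98.1st percentile of the 32851 promoters in the table. The TATAAA of Ogn lay near the far upstream end of its window, the CCAAT of Fmod downstream of the start and that of Aldh1a2 just upstream of it. On either strand, TATAAA occurred in 13.6% of all promoters in the table, CCAAT in 37.4% and the GC box GGGCGG in 35.7%. Bgn held 3 GC boxes, and Omd held none of the motifs searched. GTAAACA, a motif bound by forkhead factors such as Foxc1 and Foxd1, occurred in 3.65% of all promoters and in none of the windows of the 6 genes. No motif searched was common to the windows of the 6 genes, which says only that these letters are not there.

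The first question was whether the 8 genes differed by genotype. None of them passed limma's test at an adjusted p under 0.05 over all probe sets. All directions here follow the genotype in the GEO labels. In the published gene tables of the study the columns of these arrays carry the opposite genotype, so the signs here oppose those tables. Averaged over both ages, all 8 genes were lower in MT than in LM, with a median difference of -0.56 against -0.01 over all genes, of which 53.5% were lower. In these bulk extracts, fewer cells of a type and less RNA per cell cannot be told apart.

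The largest averaged differences were those of Fmod and Ogn. Fmod differed by -1.67 ± 0.79 (SE, 95% interval -3.46 to 0.13) and Ogn by -1.66 ± 0.68 (-3.20 to -0.11). Aldh1a2 differed by -0.82 ± 0.39 (-1.72 to 0.08), Slc6a13 by -0.60 ± 0.40 (-1.51 to 0.31) and Bgn by -0.51 ± 0.20 (-0.96 to -0.07). The differences of Lum, Dcn and Omd were smaller, at -0.40 ± 0.32, -0.25 ± 0.26 and -0.22 ± 0.28. Only Ogn and Bgn reached an unadjusted limma p under 0.05, with 0.0384 and 0.0289, and both had an adjusted p of 0.853. The adjusted p of the 8 genes ran from 0.853 to 0.937. Across the array, 27 probe sets passed (0.06%), and 3.22% of probe sets had an unadjusted p under 0.05 with MT lower, against the 2 of 8 here. The intervals of the other 6 genes included 0.

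At 4 months 7 of the 8 genes were lower in MT4m and Dcn was higher, by 0.26 ± 0.37. The median difference was -0.65, and Bgn alone, with -0.71 ± 0.28, had an unadjusted limma p under 0.05, at 0.0315, where 3.08% of probe sets were lower at that level. No probe set of the array passed the adjustment at 4 months (0%). At 8 months all 8 genes were lower in MT8m, with a median of -0.60, the largest difference in Ogn at -1.79 ± 0.96 and an adjusted p of 1.00 for every gene. None of the 8 had an unadjusted p under 0.05, against 1.79% of probe sets with MT8m lower, and 9 probe sets passed (0.02%). Dcn differed by -0.77 ± 0.37 at 8 months, opposite in sign to its difference at 4 months.

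For none of the 8 genes did all LM arrays lie above all MT arrays, which held for 2.42% of all genes. At 4 months both LM arrays lay above both MT arrays for Bgn alone, where 22.9% of all genes did so. At 8 months this held for Dcn, Ogn, Fmod and Aldh1a2, against 13.8% of all genes. Choroid plexus genes moved with the genotype on these arrays. Of 14 measured epithelial genes of the choroid plexus, all were lower in MT and 10 passed, and their mean level was 5.11 to 5.43 in LM4m, 3.59 to 3.61 in MT4m, 5.32 to 6.28 in LM8m and 3.43 to 3.54 in MT8m. Their part in the differences of the 8 genes was not tested.

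The genotype differences were recomputed without LM4m replicate 1 and LM8m replicate 2. Both are LM arrays picked for high values of the 8 genes, so an upward shift of MT minus LM was fixed by that choice. Without both arrays the averaged difference was -0.33 for Ogn, -0.24 for Bgn, -0.17 for Fmod and -0.05 for Aldh1a2. It was 0.09 for Lum, 0.12 for Dcn, 0.16 for Slc6a13 and 0.33 for Omd, and the median over the 8 genes moved from -0.56 to 0.02. Without LM4m replicate 1 alone, Dcn and Omd came to 0.00 and 0.01, and without LM8m replicate 2 alone Lum and Omd came to 0.02 and 0.11. When the array labelled MT8m replicate 1 was left out instead, all 8 genes were again lower in MT, with a median of -0.50 and differences of -1.81 for Fmod and -1.62 for Ogn, and again none passed. The median of the 14 choroid plexus genes was -1.87 without the pair and -2.11 without that array, but the pair was not picked by their values.

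**Figure D2:**
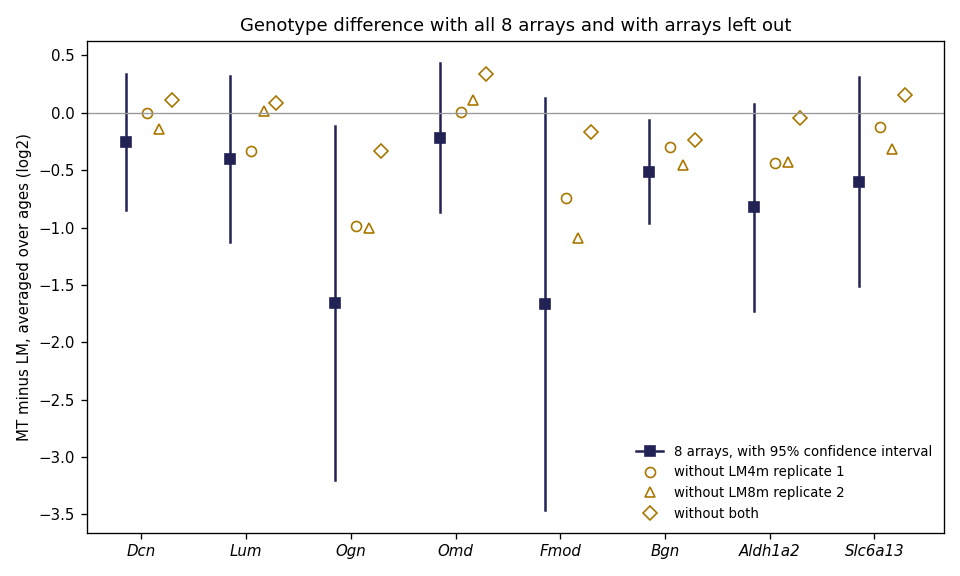
Averaged genotype difference, MT minus LM in log2 (y axis), of the 8 genes (x axis), as squares with 95% confidence intervals for all 8 arrays, and as open symbols without LM4m replicate 1 (circles), without LM8m replicate 2 (triangles) and without both (diamonds). With all arrays every square lies below 0, from -1.67 to -0.22, and without both arrays the values run from -0.33 to 0.33.

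The second question was whether the genes changed between 4 and 8 months. Averaged over genotypes, 4 of the 8 genes were higher and 4 lower at 8 months, with a median difference of 0.02. The extremes were Dcn at -0.43 ± 0.26 and Aldh1a2 at 0.39 ± 0.39. None had an unadjusted limma p under 0.05 in this averaged contrast, against 6.48% of probe sets, and no probe set of the array passed (0%). Within MT alone Dcn differed by -0.95 ± 0.37, with an unadjusted limma p of 0.0311 and an adjusted p of 0.869. It was the 1 gene of the 8 under 0.05 there, and within LM there was none. The share over all probe sets was not computed for these 2 contrasts. The change of the genotype difference with age, the interaction, ranged from -1.04 ± 0.52 in Dcn to 0.48 ± 0.80 in Slc6a13. For the interaction none of the 8 had an unadjusted p under 0.05, against 2.58% of probe sets, and none of the array's probe sets passed (0%). In the F test over the 4 groups, 6 probe sets passed (0.0133%) and the adjusted p of the 8 genes lay between 0.975 and 0.988.

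The spread inside groups was measured as the gap between the 2 arrays of a group, averaged over the 4 groups. The mean gap was 1.92 for Fmod, 1.63 for Ogn, 0.94 for Aldh1a2 and 0.89 for Slc6a13, and between 0.45 and 0.67 for Bgn, Omd, Lum and Dcn. The median over the 8 genes was 0.78 against 0.19 over all genes, whose 99th percentile was 0.71. Fmod stood at the 99.99th percentile of all genes and Ogn at the 99.96th, and Bgn, the lowest of the 8, at the 95.3rd. The percentiles are descriptions, since the genes were chosen with earlier results of these data known.

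In both LM groups the gaps were wide. In LM4m the median gap of the 8 genes was 1.28 and in LM8m 1.44, against 0.17 and 0.16 over all genes. In MT4m it was 0.49 against 0.14 over all genes, and in MT8m 0.25 against 0.18. The Fmod probe set used may cross-hybridise. In the Fmod probe set outside that design class, the SD was 1.30 in LM4m and 1.05 in LM8m, against 2.61 and 1.64. In the probe set used, LM4m replicate 1 was 12.9-fold above replicate 2, and LM8m replicate 2 was 4.97-fold above replicate 1. The same gaps were 6.44-fold and 6.09-fold for Ogn and 3.75-fold and 2.20-fold for Slc6a13. For Aldh1a2, whose lower arrays were dim, they were 1.54 and 1.56 in log2. The 2 MT8m arrays, whose Thy1 and Cst7 values were far apart, differed by at most 1.47-fold over the 8 genes, and Lum and Slc6a13 differed there by at most 1.03-fold.

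**Figure D3:**
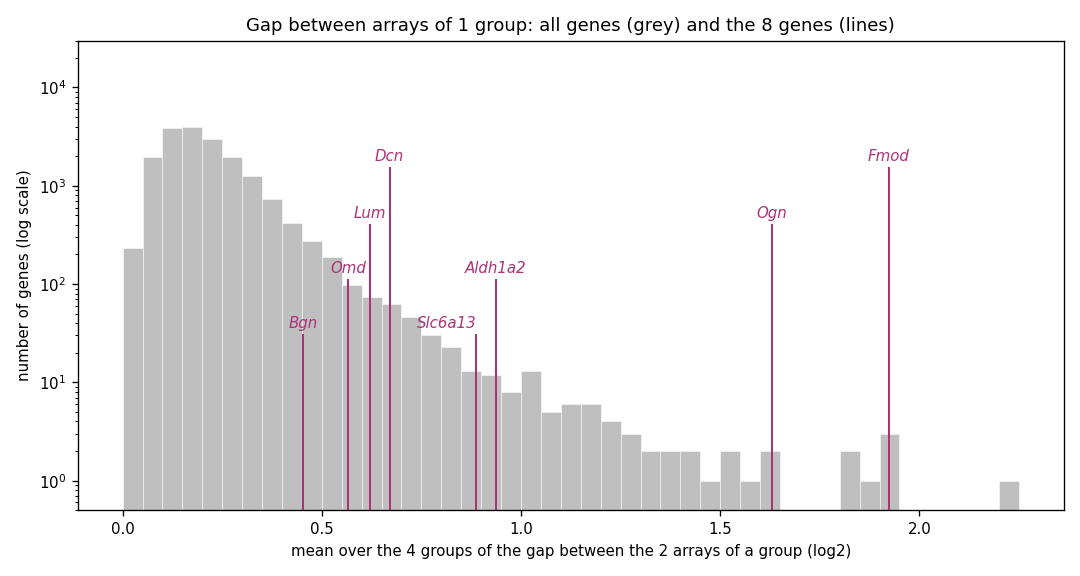
Number of genes (y axis, log scale) by the mean gap between the 2 arrays of a group in log2 (x axis), with all 18193 genes in grey bars and the 8 genes as labelled lines. The 8 genes lie between 0.45 (Bgn) and 1.92 (Fmod), in the upper tail of a distribution whose median is 0.19.

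The 8 genes deviated together on LM4m replicate 1 and LM8m replicate 2. On LM4m replicate 1 all 8 lay above their own mean over the arrays, by 0.30 to 2.63 and by 1.16 on average. On LM8m replicate 2 all 8 did so again, by 0.31 to 2.15 and by 1.12 on average. The mean deviation was -0.46 on LM4m replicate 2, -0.29 on LM8m replicate 1, -0.11 and -0.61 in MT4m, and -0.41 on both MT8m arrays. For 7 of the 8 genes, all but Dcn, these arrays were the 2 highest of the 8, a pattern found in 4.06% of all genes. As the pair was singled out by such values, this count is a description and not a test.

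Each gene was also set against the mean profile of the other 7 over the 8 arrays, which share their normalization. Pearson's r was 0.99 for Ogn, 0.96 for Fmod, 0.93 for Slc6a13 and Aldh1a2, 0.86 for Omd, 0.79 for Lum, 0.74 for Bgn and 0.60 for Dcn. Over the 6 arrays other than the high pair, r was 0.75 for Ogn, 0.69 for Slc6a13 and 0.48 for Fmod, and -0.18 for Omd and -0.47 for Bgn. The pair was picked for its high values, and leaving it out narrows the range over which r is taken.

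Further probe sets of the same genes served as a check within the array. Of the 17 probe sets, 16 were lower in MT in the averaged contrast, where 53.5% of all genes were lower, and none passed. An unadjusted limma p under 0.05 was reached by 3 with MT lower, against 3.22% of probe sets. Probe sets of 1 gene are not independent, and 6 of the 17 are of Fmod. Fmod had 6 probe sets, 5 of a design class that may cross-hybridise, and in each of them LM4m replicate 1 and LM8m replicate 2 were the 2 highest arrays. In the remaining Fmod probe set the values were 5.33 and 3.50 in LM4m, 3.16 and 3.03 in MT4m, 3.71 and 5.19 in LM8m, and 3.36 and 3.22 in MT8m. This probe set, named after its values were seen, held all LM arrays above all MT arrays, which the brightest Fmod probe set did not. Among all genes 2.42% did so. Its averaged difference was -1.24 ± 0.42, against -1.67 ± 0.79 in the brightest, which is of the class that may cross-hybridise. The second probe set of Ogn showed 3.91 and 2.51 in LM4m and 2.62 and 5.09 in LM8m. The second probe set of Dcn was dim, between 1.70 and 2.20 on all arrays, and it was the one that was not lower in MT.

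Other meningeal genes showed the same high arrays. Of 24 further markers of meningeal fibroblasts, 18 had LM4m replicate 1 and LM8m replicate 2 as their 2 highest arrays, and 23 were lower in MT, with a median difference of -0.62. Of these 24, 8 had an unadjusted p under 0.05 and 1 passed, Igfbp2, a binding protein of insulin-like growth factors, which fell by 1.90 (adjusted p = 0.0233). Igf2, a growth factor of the meninges and choroid plexus, had a difference of -1.94 ± 0.27 and an adjusted p of 0.0892. Both are made by choroid plexus or its stroma too, and their LM arrays all lay above their MT arrays. Mgp, an inhibitor of calcification, was 7.81 and 6.06 in LM4m, 5.23 and 5.53 in MT4m, 6.29 and 7.75 in LM8m, and at most 6.17 in MT8m, so the same pair of arrays was highest. Without LM4m replicate 1 and LM8m replicate 2, 13 of the 24 markers were lower in MT, none passed and the median was -0.03. Both are LM arrays and were the 2 highest for 18 of these markers. An upward shift was therefore fixed by leaving them out, and no conclusion is drawn from it. Without MT8m replicate 1, 2 of the 24 passed with MT lower, Igfbp2 and Igf2.

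Collagens that the proteoglycans bind were mixed. Of 10 fibrillar and associated collagen genes, 8 were lower in MT, none passed, 1 had an unadjusted p under 0.05 and the median was -0.18. Col1a2 was 6.45 and 4.67 in LM4m, 4.51 and 4.04 in MT4m, 4.48 and 6.35 in LM8m, and 4.40 and 3.96 in MT8m. Col3a1 was 3.14 and 1.81 in LM4m and 1.94 and 3.13 in LM8m, with 1.84 to 2.33 in MT. For these 2 of the 10 genes alone, LM4m replicate 1 and LM8m replicate 2 were the 2 highest arrays. Col5a2 had its highest value, 3.62, on LM4m replicate 2, and Col1a1 its highest, 2.36, on LM8m replicate 1.

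Other genes of the small leucine-rich proteoglycan family were mostly dim. Of 9 measured, 7 had a mean below 2.47, the median of probe set means, where a high or low array may not show. Of the 9, 6 were lower in MT, none passed, 1 had an unadjusted p under 0.05, the median was 0.00 and none had the pair of arrays as its 2 highest. Prelp, which lies beside Fmod on the chromosome, had a difference of -0.89 ± 0.14 (adjusted p = 0.140), with all LM values, 4.61 to 5.30, above all MT values, 3.64 to 4.27. In the RefSeq annotation Omd and Ogn lie side by side next to Aspn and Ecm2, and Lum lies between Dcn and Kera. Aspn stayed between 1.45 and 1.84 over the 8 arrays, Ecm2 between 1.65 and 2.04, Kera between 1.24 and 1.75 and Epyc between 1.51 and 1.71, all below that median. Slc6a12, the betaine transporter gene next to Slc6a13, stayed between 1.81 and 2.21, below it too.

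The pathways of the 2 genes that are not proteoglycans gave few differences. Of 12 retinoic acid pathway genes, 10 were lower in MT, none passed, 3 had an unadjusted p under 0.05 and the median was -0.11. Rbp4, the retinol carrier, differed by -0.68 ± 0.18 (adjusted p = 0.746) and Crabp2, a carrier of retinoic acid to its receptors, was 3.23 and 1.86 in LM4m and 2.27 and 3.58 in LM8m. Aldh1a1, another retinal dehydrogenase, differed by -0.66 ± 0.28, with its lowest value, 5.23, on MT4m replicate 1. Of 8 other Slc6 transporter genes, 5 were lower in MT and none passed. Slc6a20a, a proline transporter gene of the meninges and choroid plexus, was 5.92 and 3.74 in LM4m, 3.66 and 3.22 in MT4m, 3.95 and 5.89 in LM8m, and 3.77 and 3.27 in MT8m. Slc6a11, the astrocytic GABA transporter gene, had a difference of -0.49 ± 0.26, and Slc6a15, a neuronal amino acid transporter gene, of 0.33 ± 0.17, and in neither was the pair of arrays on top.

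Decorin and biglycan bind or modulate some proteins of the TGF-beta and BMP pathways. Of 11 genes of ligands, receptors and latent binding proteins of these pathways, 6 were lower in MT, none passed and the median was -0.10. In 3 of them, Bmp4, Bmp6 and Bmp7, the unadjusted limma p was under 0.05 with MT lower, and 4 of the 11 had the pair of arrays on top. Bmp7, a ligand made in the meninges, was 4.01 on both LM4m replicate 1 and LM8m replicate 2 and 3.01 to 3.56 on the other arrays. Tgfbr1 and Tgfbr2, the receptor chains, were higher in MT by 0.68 ± 0.35 and 0.76 ± 0.44, and both were highest on MT8m replicate 2, with 7.51 for Tgfbr1. In the fit that left out MT8m replicate 1, Tgfbr2 passed with MT higher.

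Markers of other cells that a hippocampal dissection can hold were read on the same arrays. Of 7 macrophage genes of the brain borders, 5 had the pair of arrays as the 2 highest, 7 were lower in MT and none passed. All 7 had a mean below 2.47, the median of probe set means, and their low values were not shown to be above background. Pf4 was 3.07 on both LM4m replicate 1 and LM8m replicate 2 and 2.16 to 2.33 elsewhere, and F13a1 was 3.48 and 3.56 there and 1.98 to 2.25 elsewhere. Of 8 ependymal genes, 5 had the pair on top and 8 were lower in MT, with a median of -0.54 and none passing. An unadjusted limma p under 0.05 was reached by 6 of the 8, and without the pair all 8 stayed lower, with a median of -0.33. Of 9 mural cell genes, 8 were lower in MT, none passed and 3 had the pair on top, among them Vtn, at 7.03 and 7.12 against 5.70 to 6.35. Of 9 endothelial genes none did, 3 were lower in MT and none passed. Flt1, a VEGF receptor gene, was 4.95 on LM4m replicate 1 and 4.64 on LM8m replicate 2, within or below the 4.86 to 5.48 of the other arrays.

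Choroid plexus genes took another order of arrays than the 8 genes. None of the 14 had LM4m replicate 1 and LM8m replicate 2 as the 2 highest arrays, and their mean deviation was 0.57 and 0.89 in LM4m and 0.79 and 1.74 in LM8m. Kcnj13, a potassium channel of the choroid plexus epithelium, was 6.55 and 6.85 in LM4m, 3.51 and 3.57 in MT4m, 6.26 and 7.87 in LM8m, and 3.61 and 3.21 in MT8m. The arrays LM4m replicate 2 and LM8m replicate 1 were thus high for the choroid plexus genes and low for the 8 genes. The part of border macrophages, ependyma, mural cells or choroid plexus in the values of the 8 genes was not tested. The scale has no true zero, so no marker was called absent.

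**Figure D4:**
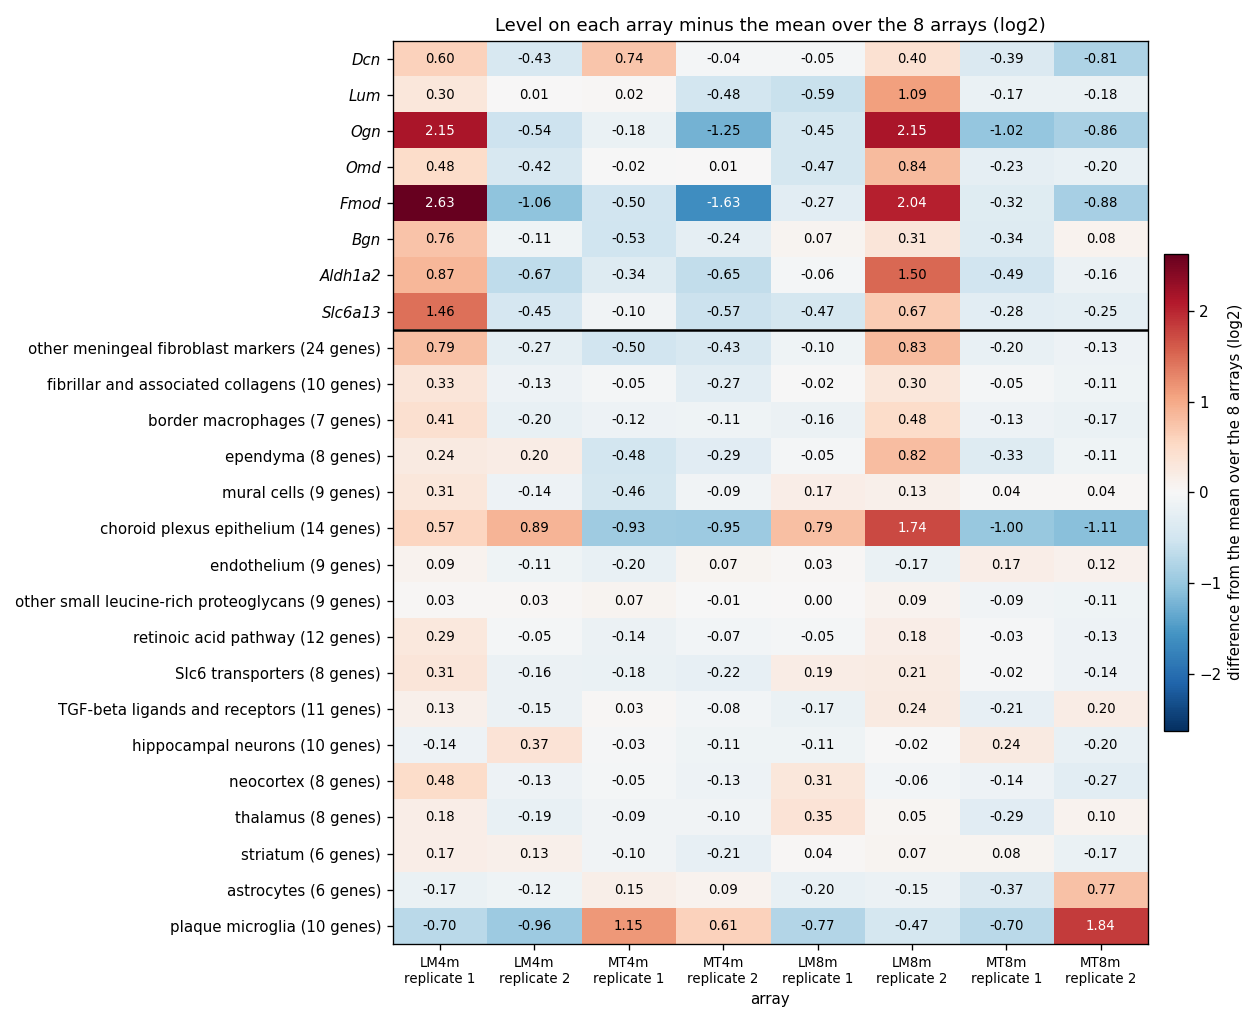
Level on each array (columns) minus the mean over the 8 arrays, in log2 (colour and printed values), for the 8 genes (rows above the line) and as means over 17 marker and pathway lists (rows below, with the number of genes measured). The 8 genes are above their means on LM4m replicate 1 and LM8m replicate 2, by 1.16 and 1.12 on average, and choroid plexus genes are above theirs on all 4 LM arrays, by 0.57 to 1.74.

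The genes most like the mean profile of the 8 were named by Pearson's r over the 8 arrays, among 1853 other genes with an SD of at least 0.3. They were Pf4 (r = 0.99), Slc6a20a (0.98), Foxd1 (0.98), Col1a2 (0.97), Serpind1 (0.97), Pard6g (0.97), F13a1 (0.97), Cdh1 (0.97), Serpina1c (0.96) and Slc13a3 (0.96). Over the 6 arrays other than LM4m replicate 1 and LM8m replicate 2, r with the same profile was 0.82 for Serpind1, 0.56 for Pf4, 0.53 for Slc6a20a, 0.47 for Foxd1 and -0.01 for F13a1. Foxd1, a forkhead transcription factor gene, was 3.59 and 1.90 in LM4m, 1.95 and 1.75 in MT4m, 2.03 and 3.28 in LM8m, and 2.08 and 2.08 in MT8m. Slc13a3, a dicarboxylate transporter gene on the list of meningeal markers, was 6.44 and 4.17 in LM4m and 4.89 and 6.17 in LM8m. These 10 genes were picked by r over all 8 arrays, with a profile whose largest deviations lie on this pair. A lower r without the pair follows in part from that choice, so no conclusion is drawn from it.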

How the data were processed

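Hippocampal RNA was hybridised to 8 Affymetrix Mouse Genome arrays, 2 in each of 4 groups. The full transgene content of the Tg6799 line is not reported here. The log2 values of 45101 probe sets were deposited by the authors, who made them by RMA in the R package affy (its version is not given in the sources used here). Scanner files were not used here, and the offset of the scale is unknown because its median is low for RMA. The number of arrays limits the precision.

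The 64 control probe sets were left out. Probe sets were named from the platform annotation, with symbols updated through Entrez identifiers in RefSeq (assembly GRCm38.p6). Of the rest, 34945 had 1 symbol (34741 matched in RefSeq), 932 several and 9160 none. Group means were fitted to the deposited log2 values with limma 3.58.1 (lmFit, eBayes) in R 4.3.3, with 4 residual degrees of freedom and two-sided p-values, adjusted by Benjamini-Hochberg over 45037 probe sets. Passing means an adjusted p under 0.05. The fit was tested on simulated data, and intervals are at 95%.

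The 8 genes and the 18 lists beside them were chosen with earlier results of these data known, so no list was tested as a set. All 8 genes were named, with up to 3 genes of each list by the size of the averaged genotype difference, and the 10 genes most like the mean profile. Neighbours on the chromosome, and other genes named, were chosen after their values were seen. Promoters and motif counts come from the RefSeq promoter table of that assembly. Alternatives were cyclic loess, leaving out dim probe sets, a trended and robust prior, 1 probe set or the mean of all probe sets per gene, fits of 1 age, an additive model, a replicate block and leaving out arrays.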

Additional observations from a re-analysis of the deposited data

How the results depend on the processing

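None of the 8 genes passed under any alternative run, and the lowest adjusted p of any of them was 0.231. Of 619 recomputed differences of single genes, 59 changed sign while passing in neither setting, 8 of them in the averaged genotype contrast. The median genotype difference ran from -0.56 with all arrays to 0.02 without LM4m replicate 1 and LM8m replicate 2. The median gap was 0.78 over the 4 groups. Without that pair it was 0.34, but over MT4m and MT8m alone, as no LM group then kept 2 arrays. The gap values thus cover different groups, and no shift is read from them. With all arrays, 0 of the 8 genes had all LM arrays above all MT arrays, against 2.42% of all genes. With 1 array left out it was 0 to 2, with 2 without LM4m replicate 2, 1 without MT4m replicate 1 and 1 without MT8m replicate 2. Fewer arrays separate more easily, and the share over all genes was not computed for these settings, so no conclusion is drawn from these counts. Over the whole array the averaged contrast gave 27 passing probe sets, and 5 to 142 with 1 array left out, with 11 without LM4m replicate 1, 10 without LM4m replicate 2, 5 without MT4m replicate 1, 7 without MT4m replicate 2, 54 without LM8m replicate 1, 7 without MT8m replicate 2 and 142 without the array labelled MT8m replicate 1. At 8 months 9 passed, 14 without dim probe sets, 22 with the trended and robust prior, 0 with 1 age alone, 0 without the high pair, and 1 to 95 with 1 array left out (95 without MT8m replicate 1, 32 without LM8m replicate 1, 1 without MT8m replicate 2). At 4 months 0 passed, 4 with cyclic loess, 5 without dim probe sets, 7 with the trended and robust prior, 24 with 1 age alone, 3 without the high pair and up to 12 with 1 array left out. The replicate block could be fitted only for the age and interaction contrasts, since LM and MT title numbers do not overlap. It gave 0 passing genes and 0 passing probe sets in each. Same-numbered arrays deviated with r = 0.24 in LM and -0.17 in MT, so the numbers were not taken as pairs. Exchanging the MT8m numbers, added after the data were seen, gave 3 passing probe sets for age and 1 for the interaction, none of them of the 8 genes. Aldh1a2 had no value without dim probe sets. For age and for the interaction 0 probe sets passed, and 1 each without MT8m replicate 2. The cause of these shifts was not tested, and with 2 arrays a group the intervals are wide.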

Other observations

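Further marker groups beyond those above were read on the same arrays. Of 10 genes of plaque-associated microglia, 10 were higher in MT with a median difference of 1.23, 9 had an unadjusted p under 0.05 and none passed with all arrays, while 6 passed with MT higher when MT8m replicate 1 was left out. Of 6 astrocyte genes, 4 were higher in MT and none passed, with Gfap at 1.28 ± 0.46, while 2 passed with MT higher, Gfap and Aqp4, when MT8m replicate 1 was left out. Of 2 measured erythrocyte genes, 1 was lower and 1 higher, with Hba-a1 between 1.66 and 2.16 and Alas2 between 1.96 and 3.08.

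Markers of the hippocampus and of adjoining brain regions were read as well. Of 10 hippocampal neuron genes, 7 were lower in MT, none passed and none had LM4m replicate 1 and LM8m replicate 2 as its 2 highest arrays. Without MT8m replicate 1, 1 of the 10, Wfs1, passed with MT lower. Of 8 neocortical genes, 8 were lower in MT and none passed. Cux2, a gene of upper cortical layers, was 5.96 on LM4m replicate 1, 5.40 on LM8m replicate 1 and 4.08 to 4.48 on the other arrays. Of 8 thalamic genes, 6 were lower in MT and none passed, and Tcf7l2 was 5.95 on LM8m replicate 1 against 2.90 to 3.94 elsewhere. Of 6 striatal genes, 5 were lower in MT and none passed. The part of any of these regions in the values of the 8 genes was not tested.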
